A study of Mus musculus with 617 samples.

Results

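Imprinted genes were described across 617 single mouse cells. The set was a fixed list of 48 genes, matched by symbol to the Ensembl gene IDs of the expression tables, and all 48 were found among the 43628 IDs. They lie on 10 chromosomes, in 11 named clusters and at 11 single loci. Allelic origin was not measured here, so every value below is the total expression of both parental copies.

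The cultured cells were those of 1 female and 1 male embryonic stem (ES) line from a cross of a C57BL/6J mother with a CAST/EiJ father, and the others were taken from mouse embryos. Each line was grown in 2i and LIF (60 female and 51 male cells), in serum and LIF (68 and 52 cells), as Epi cells kept with Activin A and FGF2 (79 and 63 cells), and after motor neuron differentiation in embryoid bodies by retinoic acid plus SAG, a smoothened agonist (39 and 35 cells). That differentiation also gives interneurons, per the labels' protocols. A further 41 cells were Epi cells of the female line after 7 passages. The embryo cells were labelled E3.5 inner cell mass (ICM, 23 cells) and E4.5 epiblast (23 cells) of the same cross with no sex given, and E5.5 epiblast of C57BL/6J parents (20 female and 63 male cells). The labels do not tie embryo cells to single embryos. Libraries were made by SMART-seq2 with Tn5 tagmentation, and the deposited unit is FPKM, a read density per transcript length and library size.

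The median cell of a group had 8122 to 10839.5 genes at 1 FPKM or more, and read depth was unknown. In several groups some marker levels stood apart from the label. The Epi female culture had a mean of 14.1 FPKM of the primed gene Fgf5 and 3671 FPKM of the pluripotency gene Dppa5a. The Epi male culture had 144.9 FPKM of Fgf5 and 2.94 FPKM of Dppa5a, and the 7-passage Epi culture had 120 and 0.166 FPKM. Results on Epi cells are therefore given with and without the Epi female culture. In the motor neuron cultures a mean log2(FPKM + 1) of at least 7 over 8 neuronal marker genes was reached in 7 of 39 female and 16 of 35 male cells. Of the cells labelled E4.5 epiblast, 20 of 23 had the trophoblast regulator Cdx2 at 1 FPKM or more, against 13 of 23 at E3.5. In the median cell Cdx2 stood at 40.3 FPKM at E4.5 and 5.73 FPKM at E3.5. The pluripotency genes Pou5f1 and Nanog were at 1 FPKM or more in all 23 cells of both stages. Their medians were 230.4 and 34.7 FPKM at E4.5 and 331.3 and 56.9 FPKM at E3.5.

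Genomic imprinting marks the maternal or paternal copy of a gene in the germ line with DNA methylation, so that in the embryo only the copy from a given parent is transcribed. Imprinted genes sit in clusters under a shared control region, often with a long non-coding RNA expressed from the opposite parental copy to the protein-coding genes. Many act on growth of the embryo and placenta or in the brain. The zinc finger protein ZFP57 keeps the methylation mark at many control regions by binding a methylated 6-base motif.

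That motif, TGCCGC (read on both strands, so also as GCGGCA), was searched in the 250 bases before each start site of the RefSeq promoter table (GRCm38.p6). The table matched 40 of the 48 members. Of these, 8 (20%) had the motif in at least 1 of their promoters. Counted by promoter, 9 of the 61 of these members (14.8%) held it, against 8.68% of all 32851 promoters of the table. The 9 include a pair of Mest windows that overlap in all but 3 bases and hold the same matches. The motif contains a CpG, and the windows of the members had a median of 10 CpG against 6 in all. A match is a stretch of letters and not a measured binding site. The sequences of 6 members that the results turn on are shown 5′ to 3′ on the strand of the gene, with the motif in capitals. Where a gene had several windows, the one with the most matches was chosen. Meg3 and Mest each have a further window without a match. The shown windows of Plagl1 and Mest belong to start sites 30328 and 14503 bases from the annotated gene start. Nap1l5, Meg3, Plagl1 and Mest hold the motif, and these windows of Nnat and Airn do not.
Nap1l5, chr6:58907127-58907376, minus strand: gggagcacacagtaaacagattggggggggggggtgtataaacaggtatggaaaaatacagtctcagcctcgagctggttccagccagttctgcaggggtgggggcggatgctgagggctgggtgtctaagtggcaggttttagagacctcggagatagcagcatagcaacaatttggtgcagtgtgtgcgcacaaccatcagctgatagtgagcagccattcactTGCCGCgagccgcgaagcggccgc
Meg3, chr12:109540746-109540995, plus strand: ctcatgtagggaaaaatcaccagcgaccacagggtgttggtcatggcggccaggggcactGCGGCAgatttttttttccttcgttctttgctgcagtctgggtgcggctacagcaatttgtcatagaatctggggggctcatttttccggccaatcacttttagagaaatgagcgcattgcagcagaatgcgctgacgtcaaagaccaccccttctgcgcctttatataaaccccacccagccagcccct
Plagl1, chr10:13090582-13090831, plus strand: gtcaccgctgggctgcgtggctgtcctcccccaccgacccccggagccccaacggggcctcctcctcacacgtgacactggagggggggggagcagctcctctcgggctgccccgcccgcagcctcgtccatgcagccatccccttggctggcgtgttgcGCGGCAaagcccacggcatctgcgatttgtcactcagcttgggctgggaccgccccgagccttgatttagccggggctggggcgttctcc
Mest, chr6:30737800-30738049, plus strand: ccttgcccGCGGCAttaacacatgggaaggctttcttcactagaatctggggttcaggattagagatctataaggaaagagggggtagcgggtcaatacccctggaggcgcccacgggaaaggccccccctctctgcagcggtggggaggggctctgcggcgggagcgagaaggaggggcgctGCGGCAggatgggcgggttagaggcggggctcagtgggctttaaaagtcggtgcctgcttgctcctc
Nnat, chr2:157559828-157560077, plus strand: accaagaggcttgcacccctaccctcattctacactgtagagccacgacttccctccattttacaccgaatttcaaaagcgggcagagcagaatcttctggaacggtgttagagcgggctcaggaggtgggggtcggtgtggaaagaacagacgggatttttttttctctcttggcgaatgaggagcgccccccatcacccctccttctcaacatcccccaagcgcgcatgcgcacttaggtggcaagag
Airn, chr17:12741061-12741310, plus strand: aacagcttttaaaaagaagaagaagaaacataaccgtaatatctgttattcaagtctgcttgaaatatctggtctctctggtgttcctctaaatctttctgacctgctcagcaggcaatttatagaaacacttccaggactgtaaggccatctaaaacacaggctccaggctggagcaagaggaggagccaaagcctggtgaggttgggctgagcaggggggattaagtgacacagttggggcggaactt

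The match of Nap1l5 began 24 bases before the start site, that of Meg3 190 bases before and that of Plagl1 90 bases before. Mest had 2 matches. The 250 bases of Plagl1 held 19 CpG dinucleotides, those of Airn 2 and those of the other 4 genes between 10 and 14.

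The members differed widely in level. A mean of 10 FPKM or more was reached in at least 1 of the 13 groups by 39 members, and 18 had a mean of at least 1 FPKM in all 13. Only Kcnq1ot1 and Zim1 stayed under 1 FPKM in every group. Kcnq1ot1, the non-coding RNA of the Kcnq1 cluster, had its highest mean of 0.937 FPKM in the motor neuron female culture. Zim1, a zinc finger gene beside Peg3, reached 0.869 FPKM there. Both of these, Rtl1, Usp29 and Rasgrf1 were not tested, since they averaged under 1 FPKM in the 8 cultures. Rtl1 and Rasgrf1 had their highest means in the motor neuron male culture, at 2.36 and 1.98 FPKM, and Usp29 had its highest at E3.5, at 2.8 FPKM. Kcnq1ot1 shares exon bases with Kcnq1, and its annotated transcript is a single stretch of 93092 bases. In all, 17 of the 48 members share exon bases with another gene of the tables, 13 of them on the opposite strand. Whether counting used strand is not given in the sources used here, so values of such pairs (Mest with Copg2, Ube3a with Snhg14, Gnas with Nespas) may hold reads of both genes.

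Motor neuron cultures held the most expressed imprinted genes and the blastocyst cells the fewest. The number of members with a mean of at least 1 FPKM was 32 and 35 in the 2i female and male cultures, 36 and 35 in serum, 40 and 37 in Epi and 45 and 43 in motor neuron cultures. By this measure 35.8% and 34.3% of all 43628 IDs were expressed in motor neuron cultures, 29.6 to 32.5% in the other 6 cultures and 26 and 26.8% at E3.5 and E4.5, so over all genes too the motor neuron cultures were above the other cultures and the blastocyst cells below. The member count was 39 in the 7-passage Epi cells, 25 at E3.5, 25 at E4.5, and 39 and 37 in the E5.5 female and male cells. At 100 FPKM or more the counts were 0 and 1 in 2i, 3 and 2 in serum, 4 and 4 in Epi, and 9 and 10 in motor neuron cultures. The leading member was Mcts2 in 2i female (68.8 FPKM), Phlda2 in 2i male (128.9 FPKM), Meg3 in serum female (133.4 FPKM), Phlda2 in serum male (226.3 FPKM), Meg3 in Epi female (263.2 FPKM) and Mest in Epi male (384 FPKM). In both motor neuron cultures it was Nnat. The median FPKM sum per cell was also larger in motor neuron cultures, at 1.33e+06 and 1.48e+06, than in the other 6 cultures of the first table, at 7.93e+05 to 9.61e+05.

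**Figure D1:**
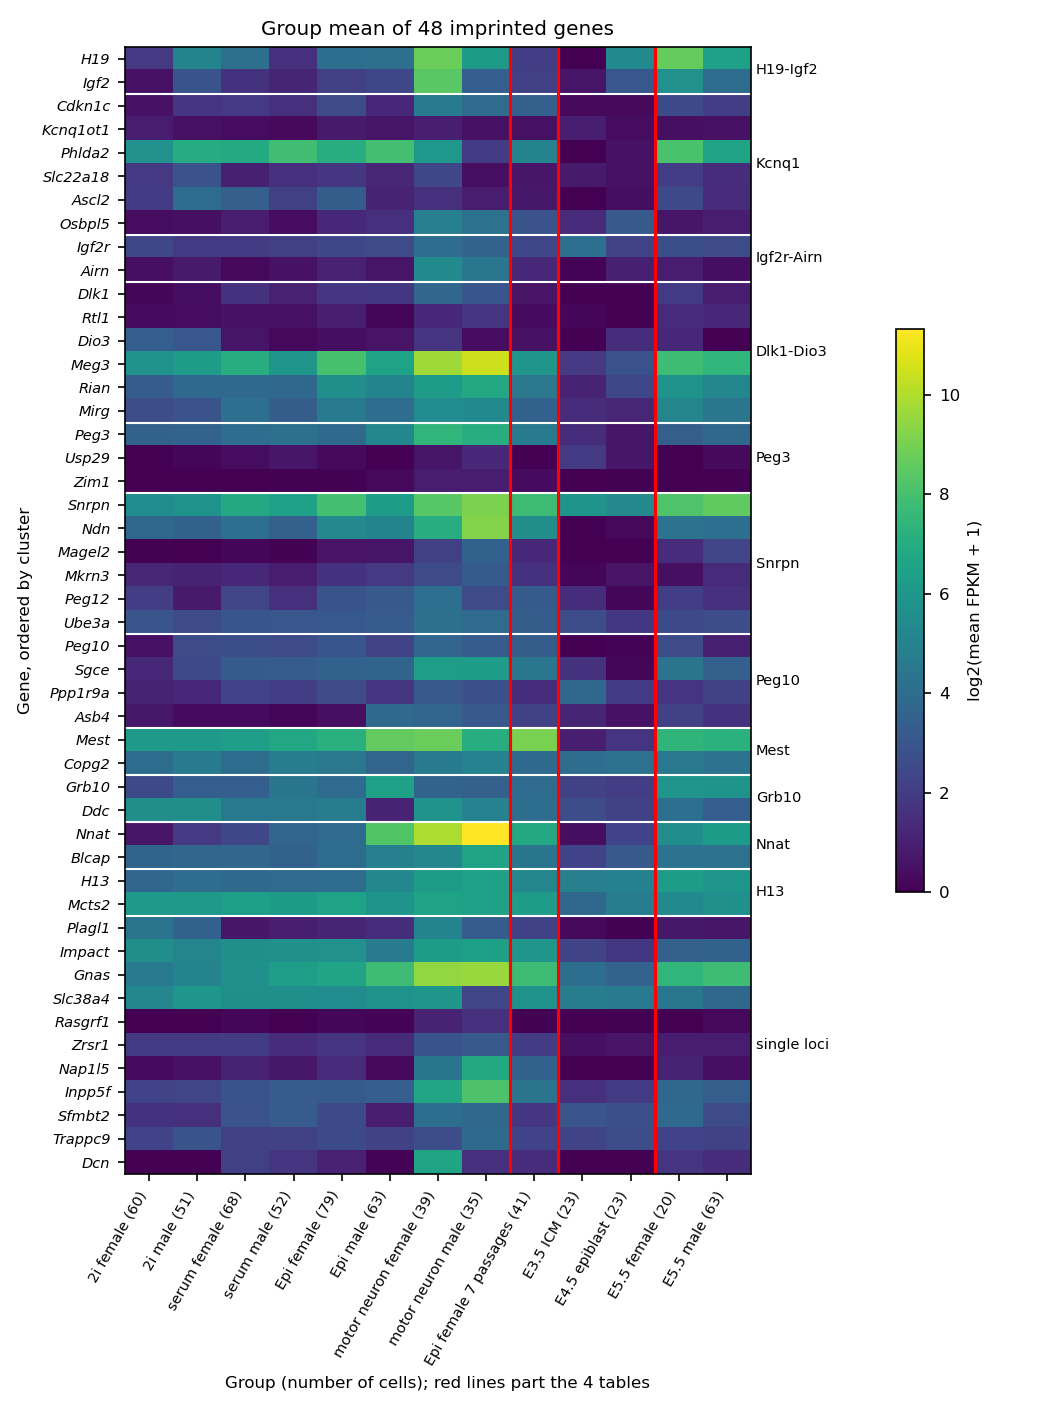
Mean expression of the 48 imprinted genes (rows, by cluster) in the 13 groups (columns), coloured by log2(mean FPKM + 1); the red lines part the separately deposited tables. The motor neuron columns hold 45 and 43 members at a mean of 1 FPKM or more, the E3.5 and E4.5 columns 25 each.

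Motor neuron differentiation was the change with the most imprinted genes called. Each culture was taken as 1 sample, and log2(mean FPKM + 1) of the 8 cultures was tested with limma, with p-values adjusted by the Benjamini-Hochberg method over the 15504 genes that averaged 1 FPKM or more. A gene was called at an adjusted p under 0.05 with a change of at least 1 on that log2 scale. With 1 female and 1 male line as the replicates of each state, the p-values measure the spread between these cultures only. In motor neuron against serum cultures 24 of the 43 members that passed the filter (55.8%) were called higher and 0 lower. Of all tested genes 30.1% were called higher and 2.7% lower. The median log2 change was 2.07 over the members and 0.71 over all genes tested. When each culture was scaled to the same upper quartile the median of all genes was -0.01, and 15 members (34.9%) rose, against 13.3% of all genes. Osbpl5, Airn, Magel2 and Nap1l5 passed the filter only through the motor neuron cultures. Without genes of that kind 20 of 39 members rose, against 26.1% of all genes. Of the 24 members, Meg3, Rian, Ndn, Inpp5f, Gnas, Sgce, Peg3, Airn and Osbpl5 were called in each of the 22 alternative fits.

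Nnat encodes neuronatin, a small membrane protein of the brain, and lies on chr2:157560078-157562522 (GRCm38) inside the oppositely transcribed Blcap. Its mean was 0.628 and 2.71 FPKM in the 2i female and male cultures, 4.38 and 12.1 FPKM in serum, and 14.4 and 301.4 FPKM in Epi. It reached 970 ± 1628 (SD over cells, n = 39) and 2558 ± 3005 FPKM (n = 35) in motor neuron cultures. Both motor neuron cultures were above all 6 others, and the spread between cells was larger than the mean. The change against serum was 7.55 ± 1.37 (log2, SE; limma, adjusted p = 0.00903). Its host gene Blcap, which encodes a small protein found to be lost in bladder cancer, had 12.1 and 10.53 FPKM in serum and 37 and 96.9 FPKM in motor neuron cultures, a rise of 2.31 ± 0.51 called in 16 of 22 alternative fits.

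Of the Dlk1-Dio3 cluster on chromosome 12, 4 of the 5 tested members rose, against 30.1% of all genes tested. Meg3, a maternally expressed non-coding RNA at chr12:109541001-109571726, had 133.4 and 59.7 FPKM in serum and 841 and 1399 FPKM in motor neuron cultures, a rise of 3.59 ± 0.59 (limma, adjusted p = 0.00705). Rian and Mirg, non-coding RNAs of the same strand that host small nucleolar RNAs and microRNAs, had 13.7 and 13.1 FPKM (Rian) and 16.4 and 9.15 FPKM (Mirg) in serum. In motor neuron cultures Rian had 74.8 and 113.3 FPKM and Mirg 43 and 41.5 FPKM. The rises were 2.69 for Rian and 1.70 for Mirg, so all 3 non-coding RNAs of the cluster rose. Dlk1, the paternally expressed Notch-family ligand of the cluster, went from 2.06 and 1.03 FPKM to 12.5 and 7.12 FPKM. Dio3, the enzyme that inactivates thyroid hormone, stayed low, at 0.570 and 0.175 FPKM in serum and 2.21 and 0.298 FPKM in motor neuron cultures.

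Of the Snrpn cluster, the region of Prader-Willi and Angelman syndromes on chromosome 7, 5 of 6 members rose, against 30.1% of all genes tested. Ndn encodes necdin, a protein of postmitotic neurons. It had 16.7 and 10.2 FPKM in serum and 130.9 and 601 FPKM in motor neuron cultures, a rise of 4.32 ± 0.68 (limma, adjusted p = 0.00608). Its neighbour Magel2, of the same MAGE protein family, stood at 0.119 and 0.0503 FPKM in serum and at 3.49 and 10.3 FPKM in motor neuron cultures. Magel2 averaged 0.214 FPKM in the 6 other cultures and was tested only because of its motor neuron level. Snrpn, which encodes the splicing protein SmN, had 111.4 and 88.8 FPKM in serum and 330 and 539 FPKM in motor neuron cultures, a rise of 2.07 that was called in 11 of 22 alternative fits. Ube3a, a ubiquitin ligase imprinted in neurons, had 7.25 and 7.41 FPKM in serum and 17.1 and 14.4 FPKM in motor neuron cultures, a rise of 1.01, also called in 11 of 22. The ring finger gene Mkrn3 rose by 1.81, from 1.44 and 0.877 FPKM to 5.08 and 8.23 FPKM, and Peg12 was not called.

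Further members rose strongly against serum. Nap1l5, a nucleosome assembly protein gene, had 1.19 and 0.644 FPKM in serum and 19.9 and 115.8 FPKM in motor neuron cultures. Inpp5f, an inositol phosphatase gene, had 6.65 and 8.41 FPKM in serum and 98.5 and 281.6 FPKM in motor neuron cultures, a rise of 4.31. Gnas, which encodes the G-protein subunit that activates adenylyl cyclase, had 51 and 77.7 FPKM in serum and 715 and 764 FPKM in motor neuron cultures, a rise of 3.53. In Inpp5f and Gnas both motor neuron cultures were above both serum cultures by more than the gap between the lines on the log2 scale. Nap1l5 averaged 0.731 FPKM in the 6 other cultures and was tested only because of its motor neuron level. Sgce, an epsilon-sarcoglycan gene, rose by 3.02, from 8.16 and 8.91 FPKM to 79.99 and 73.1 FPKM, and its neighbour Peg10, a retrotransposon-derived gene expressed from the shared promoter region, was not called (5.53 and 5.04 FPKM in serum, 12.1 and 8.61 FPKM in motor neuron cultures). Peg3, a zinc finger gene with roles in maternal care and growth, rose by 3.14, from 15.5 and 17 FPKM to 174.6 and 130.9 FPKM.

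Airn and Igf2r overlap on chromosome 17. Airn, the non-coding RNA that silences paternal Igf2r (chr17:12741311-12860136), had 0.166 and 0.456 FPKM in serum and 41.2 and 20.7 FPKM in motor neuron cultures, a rise of 4.54 ± 0.42 (limma, adjusted p = 0.00233). It averaged 0.571 FPKM in the 6 other cultures and was tested only because of its motor neuron level. Igf2r, the receptor that clears IGF2, had 3.01 and 3.42 FPKM in serum and 15.3 and 10.6 FPKM in motor neuron cultures, a rise of 1.71 that was called in 17 of 22 alternative fits and missed the threshold with rescaled sums and with the upper-quartile scaling. Airn starts within Igf2r and runs against it.

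The called members of other clusters and loci are given next. Osbpl5, an oxysterol-binding protein gene, had 0.857 and 0.308 FPKM in serum and 29.7 and 17.6 FPKM in motor neuron cultures, a rise of 3.94. The cell cycle inhibitor gene Cdkn1c had 2.72 and 1.92 FPKM in serum and 24.4 and 14.32 FPKM in motor neuron cultures, a rise of 2.58 called in 15 of 22 alternative fits. For Cdkn1c the motor neuron cultures were above all 6 others. Osbpl5 averaged 0.873 FPKM in those 6 and was tested only because of its motor neuron level. The zinc finger gene Plagl1 had 0.602 and 0.947 FPKM in serum and 33.5 and 8.95 FPKM in motor neuron cultures, a rise of 3.39. H13, which encodes a signal peptide peptidase, had 14.27 and 14.55 FPKM in serum and 73.4 and 87.3 FPKM in motor neuron cultures, a rise of 2.4, while its intronic neighbour Mcts2 had 82.7 and 70.7 FPKM in serum and 94.7 and 87.5 FPKM in motor neuron cultures. The splicing factor gene Zrsr1 rose by 1.36, from 2.9 and 1.71 FPKM to 6.79 and 7.94 FPKM, and was called in 12 of 21 alternative fits. Of the members not called, Impact, an inhibitor of the translation regulator GCN2, was high throughout, at 23.8 to 85.6 FPKM over the 8 cultures. Trappc9, a vesicle trafficking gene, reached 10 FPKM only in the motor neuron male culture (14.24 FPKM), and Peg12 only in motor neuron female (16.65 FPKM).

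The growth genes H19 and Igf2 were higher in the female than in the male motor neuron culture. H19, a maternally expressed non-coding RNA at chr7:142575529-142578143, had 17.3 and 1.99 FPKM in serum and 443 and 71 FPKM in motor neuron cultures. Its rise of 4.60 ± 1.39 passed the test (limma, adjusted p = 0.0435) but was called in only 7 of 22 alternative fits. Igf2, which encodes the insulin-like growth factor 2, had 2.16 and 1.22 FPKM in serum and 340.98 and 9.43 FPKM in motor neuron cultures and was not called (4.5 ± 1.58, limma, adjusted p = 0.0673). A single cell held 50.1% of the Igf2 summed over the motor neuron female culture, at 6662 FPKM. Without it the mean of that culture was 174.6 FPKM.

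No member was called lower against serum, although 4 of the 43 had a fitted change below 0 and 39 above it. Phlda2, which restrains placental growth, had the lowest change: 121.6 and 226.3 FPKM in serum, 65.6 and 2.95 FPKM in motor neuron cultures (-3.36 ± 1.26, limma, adjusted p = 0.0802). The cultures did not overlap, since both motor neuron means were below both serum means. Phlda2 was called lower in 4 of 22 alternative fits. The amino acid transporter gene Slc38a4 had 48.7 and 49.5 FPKM in serum and 61.9 and 4.18 FPKM in motor neuron cultures, so the lines went apart there.

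**Figure D2:**
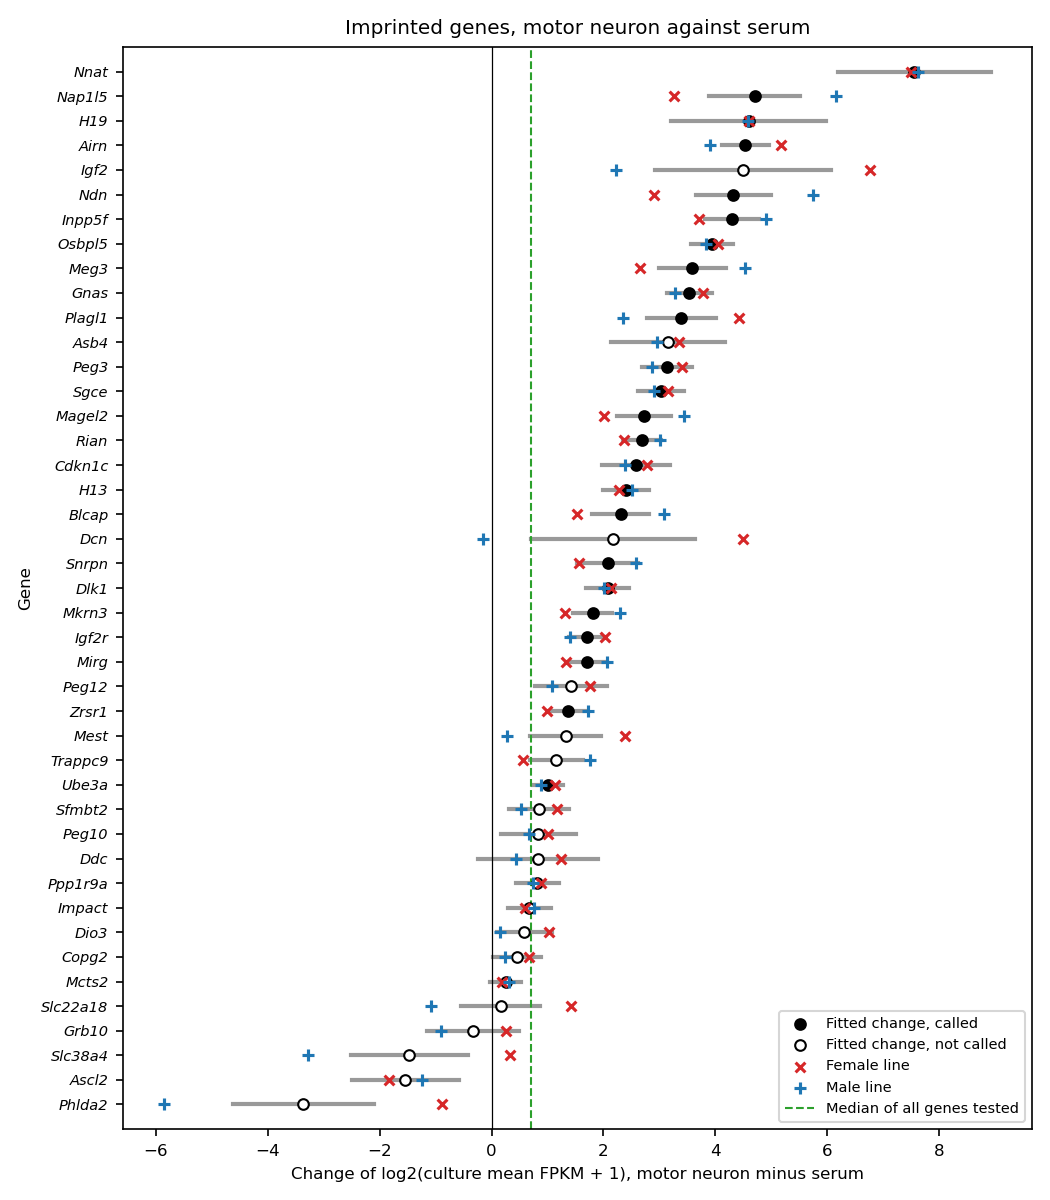
Change of each tested imprinted gene in motor neuron against serum cultures, as log2 of (mean FPKM + 1), for the female (x) and the male line (+), with the fitted change of both (circles, filled where called) and its SE (bars); the dashed line is the median of all genes tested. The 24 called members lie to the right of 0, from Ube3a at 1.01 to Nnat at 7.55.

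The 2i and Epi values of the leading members show how far the motor neuron levels lay from the other states. Meg3 had 53.1 and 74.97 FPKM in 2i and 263.2 and 94.7 FPKM in Epi. Ndn had 12.92 and 10.45 FPKM in 2i and 38.7 and 32.3 FPKM in Epi. Inpp5f had 3.83 and 4.08 FPKM in 2i and 8.21 and 9.45 FPKM in Epi. For all 3 both motor neuron cultures were above the 6 other cultures. Gnas and Peg3 had the same order, with 24.2 to 213.1 FPKM for Gnas and 10.3 to 37.5 FPKM for Peg3 in the 6 other cultures. Airn had 0.166 to 1.07 FPKM there, and it was tested only because of its motor neuron level. Snrpn had 240.8 FPKM in Epi female, 74.2 FPKM in Epi male, and 43.6 and 53.5 FPKM in 2i.

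Against the Epi cultures 18 of 43 members (41.9%) were called higher and 0 lower in motor neuron cultures. Of all genes tested 21.9% were called higher and 2.6% lower. With cultures scaled to the same upper quartile 9 members (20.9%) rose, against 9.69% of all genes. Without the genes that passed the filter only through the motor neuron cultures, 14 of 39 members (35.9%) rose, against 18% of all genes. Of these members Inpp5f rose by 4.10 and Ndn by 2.95. Nap1l5 (4.79), Airn (4.07) and Osbpl5 (3.16) were tested only because they were high in motor neuron cultures. Without the Epi female culture 14 of the 43 members rose and 1 fell, against 15.4% and 2.53% of all genes; the Epi side is then 1 culture, assumed to vary like the other groups. Nnat missed the threshold (4.53 ± 1.37, limma, adjusted p = 0.0530), and its Epi cultures were far apart at 14.4 and 301.4 FPKM. Sfmbt2, a Polycomb-group gene of the placenta, rose by 2.26 against Epi, a call made in 7 of 19 alternative fits, and was not called against serum. In the fit without the Epi female culture Grb10, an inhibitor of insulin and growth factor receptors, fell by 2.92 (limma, adjusted p = 0.0306), a value that rests on the single Epi male culture. It had 87.7 FPKM in Epi male, 14.6 FPKM in Epi female, and 11.3 and 10.1 FPKM in motor neuron cultures. A fit to the 2 Epi and 2 motor neuron cultures alone called 0 members. Inpp5f and Peg3 had adjusted p = 0.0570 and 0.0768 there (limma). The share of all genes called in that fit was not worked out, so the count is not a result about imprinted genes.

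The means hide how different the cells of a motor neuron culture were. Cells were parted by the mean log2(FPKM + 1) of 8 neuronal genes and of 9 endoderm genes. The endoderm list was higher in 13 of 39 female and 15 of 35 male cells. The neuron list was at least 7, a bound chosen after the scores were seen, in 7 female and 16 male cells, and 19 female and 4 male cells fell in neither set. Within 1 unit of the boundary between the lists lay 1 female and 5 male cells. The remaining female cells had a mean score of 4.33 on the pluripotency list. The median FPKM sum per cell was 1.79e+06 and 1.57e+06 in the neuron set and 1.18e+06 and 1.25e+06 in the endoderm set. What this difference contributes to the levels below was not tested. Cells of a culture share their source, so the values are a description with no test.

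Of the 40 members with at least 10 FPKM in one of these sets, 19 had their highest mean in the neuron set in both cultures. The endoderm set was highest in both cultures for 4 and the remaining cells for 8, and in 9 the cultures differed. The same count was not made over all genes, so it does not show a trait particular to imprinted genes. Nnat had a mean of 4156 and 5311 FPKM in the neuron sets of the female and male cultures, 37.7 and 107 FPKM in the endoderm sets, and 434 and 738 FPKM in the remaining cells. The ranges of the first sets did not overlap: the lowest neuron-set cells had 2263 and 3018 FPKM, and the highest endoderm-set cells 136.6 and 274.9 FPKM. Meg3 had 3329 and 2800 FPKM in the neuron sets against 232 and 204 FPKM in the endoderm sets. Its ranges did not overlap either, with 1093 and 602 FPKM as the lowest neuron-set values and 938 and 426 FPKM as the highest endoderm-set values.

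Snrpn and Nap1l5 followed the neuron set in both cultures. For Snrpn the means were 1449 and 1123 FPKM in the neuron sets and 24.95 and 26.9 FPKM in the endoderm sets. Nap1l5 was at 1 FPKM or more in 0 of 13 female and 4 of 15 male endoderm-set cells, and in 5 of 7 and 16 of 16 neuron-set cells. Inpp5f had 367 and 574 FPKM against 39.3 and 32.4 FPKM in the endoderm sets. Gnas was high in all sets and still higher in the neuron sets, at 1395 and 1300 FPKM, than in the endoderm sets, at 540 and 282.5 FPKM.

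Among members with at least 10 FPKM, Airn, Ddc, Sfmbt2 and H13 were highest in the endoderm set in both cultures. Airn had 67.9 and 36.1 FPKM there and 26.6 and 7.75 FPKM in the neuron sets. Ddc, which makes dopamine and serotonin from their precursors and lies beside Grb10, had 121.98 and 61.9 FPKM in the endoderm sets and 0.168 and 8.08 FPKM in the neuron sets. Sfmbt2 had 32.3 and 26.1 FPKM in the endoderm sets and 2.96 and 1.67 FPKM in the neuron sets. In Peg3, which was called higher over whole cultures, the neuron sets (63.5 and 65.6 FPKM) were below the endoderm sets (185.7 and 191.97 FPKM), and the remaining cells had 207.9 and 163.6 FPKM.

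H19, Igf2, Mest and Dcn were highest outside both sets in both cultures. H19 had 820 FPKM in the 19 remaining female cells, against 116.7 FPKM in the neuron set and 67.9 FPKM in the endoderm set. Igf2 had 672, 54.1 and 12.3 FPKM in the same order, and without the single highest cell the first of these was 338.8 FPKM. In Mest, a hydrolase-fold protein gene, the values were 781, 185.7 and 19.5 FPKM. Dcn, the matrix proteoglycan decorin, had 201 FPKM in the remaining female cells, or 118.995 FPKM without the highest of them at 1670 FPKM, and 0.271 FPKM in the neuron set and 0.269 FPKM in the endoderm set. These female cells also had the highest mean score on the mesenchyme list, 1.72, and the part of such cells in the H19, Igf2 and Dcn means was not tested. In the male culture, with 4 remaining cells, the means there were 135.3 FPKM for H19, 30.2 FPKM for Igf2 and 424 FPKM for Mest.

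When the endoderm-set cells were left out, 26 members rose against serum, with 29.5% of all genes tested rising in that fit. When the cells of neither set were left out, 23 rose and 2 fell, against 34.2% and 5.2% of all genes tested.

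**Figure D3:**
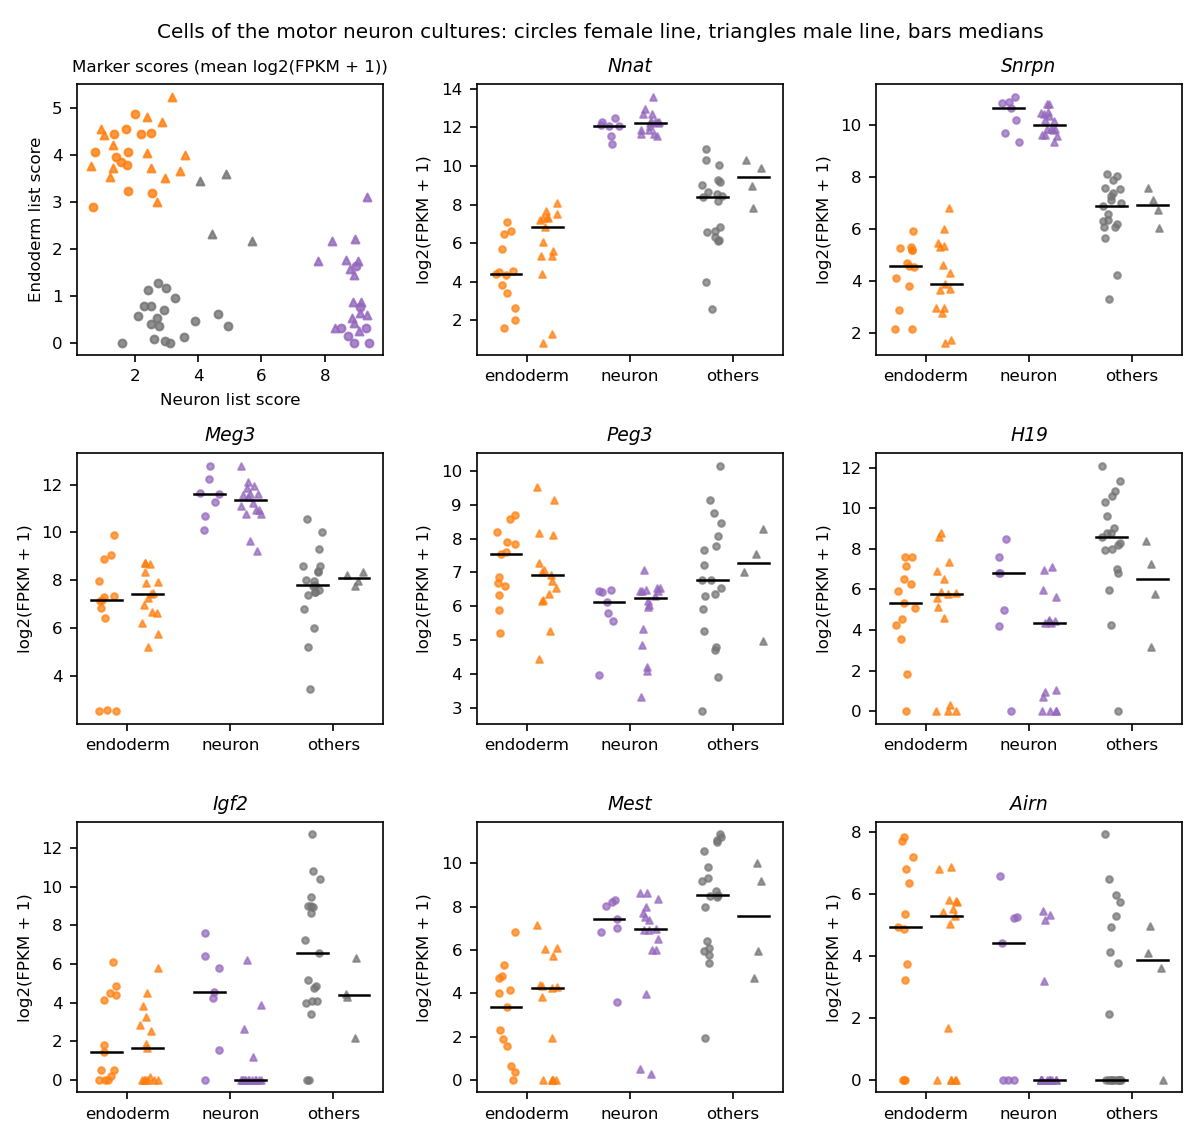
Single cells of the motor neuron cultures: the first panel sets the endoderm list against the neuron list, and the others give log2(FPKM + 1) of 8 imprinted genes by marker set (orange endoderm, purple neuron, grey others; circles female line, triangles male line, bars medians). Nnat and Meg3 of the neuron sets lie above all endoderm-set cells of the same culture, and Airn and Peg3 have higher means in the endoderm sets.

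Serum against 2i and Epi against serum called 0 members each. The background was as low: 0.0193% of all genes tested were called in serum against 2i, and 0.0387% in Epi against serum. At an unadjusted p under 0.05 limma had 8 of the 43 members (18.6%) in serum against 2i and 3 (6.98%) in Epi against serum, while it had 9.99% and 6.45% of all genes tested.

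Plagl1 and Dio3 were the members with the lowest serum levels relative to 2i. Plagl1 had 19.7 ± 12.7 FPKM in 2i female (SD over cells, n = 60) and 10.3 ± 10.1 FPKM in 2i male cells (n = 51), and 0.602 and 0.947 FPKM in serum. It was at 1 FPKM or more in 60 of 60 and 45 of 51 cells in 2i, and in 8 of 68 and 9 of 52 cells in serum. The exact 95% intervals for these shares were 94 to 100% and 76.1 to 95.6% in 2i, and 5.22 to 21.9% and 8.23 to 30.3% in serum. Dio3 had 9.41 and 7.31 FPKM in 2i and was detected in 53 of 60 and 39 of 51 cells. In serum it had 0.570 and 0.175 FPKM and was detected in 6 of 68 and 2 of 52 cells. The changes were -3.11 ± 0.62 for Plagl1 (limma, adjusted p = 0.151) and -2.78 ± 0.49 for Dio3 (adjusted p = 0.123). Both were called when the mean of log2 values over cells was tested in place of the log2 of the mean (limma, adjusted p = 0.0236 and 0.00360). They were also called in a fit to the 4 cultures alone (limma, 0.0397 and 0.0332). These 2 were the only calls among 19 alternative fits for Plagl1 and 18 for Dio3. The share of all genes called in these 2 fits was not worked out. Plagl1 and Dio3 stayed under 2 FPKM in both Epi cultures of the first table.

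H19, Igf2 and Ascl2, a trophoblast transcription factor gene, went opposite ways in the lines between 2i and serum. H19 had 2.69 FPKM in 2i female and 33.6 FPKM in 2i male cells, and was detected in 25 of 60 (41.7%) and 50 of 51 (98%) of them. In serum the female culture had 17.3 FPKM and the male culture 1.99 FPKM. Igf2 had 0.482 FPKM in 2i and 2.16 FPKM in serum in the female line, and 6.59 and 1.22 FPKM in the male line. Ascl2 had 3.05 and 9.61 FPKM in the female line and 14.8 and 3.47 FPKM in the male line. In all 3 genes the male line was the higher in 2i and the lower in serum.

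Between Epi and serum the largest positive estimate was that of Nnat (3.02 ± 1.37, limma, adjusted p = 0.727). With the Epi female culture left out, the Epi side is the Epi male culture alone, assumed to vary like the other groups, and 1.43% of all genes tested rose and 0.937% fell. In that fit Asb4, an ankyrin-repeat gene of the Peg10 cluster, rose by 3.62 (limma, adjusted p = 0.0218), Ddc fell by 3.51 (adjusted p = 0.0253) and Sfmbt2 fell by 2.23 (adjusted p = 0.0467). Asb4 had 0.253 and 0.162 FPKM in serum, 0.359 FPKM in Epi female, 13.8 FPKM in Epi male and 3.61 FPKM in the 7-passage cells. Ddc had 23.1 and 22.9 FPKM in serum, 26.2 FPKM in Epi female, 1.10 FPKM in Epi male and 16.2 FPKM at 7 passages. The Epi female culture was thus near serum in both genes, and the 7-passage cells lay between. Nnat had 111.4 FPKM, Gnas 217 FPKM and Mest 532 FPKM in the 7-passage cells, against 301.4, 213 and 384 FPKM in Epi male and 14.4, 97.7 and 145.7 FPKM in Epi female. The 7-passage cells come from another table, and no test was made across tables.

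Over the 4 states 0 members were called between the female and the male line, and 0 of all genes tested (a background of 0%). This does not show that the lines were equal. At an unadjusted p under 0.05 limma had 2 members, Nnat (-2.04, lower in the female line) and Gnas (-0.55), and 1389 of all 15504 genes.

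Members also differed in how evenly they were spread over the cells of a culture. A member was taken as uneven where its culture mean was at least 10 FPKM while fewer than 50% of the cells had 1 FPKM or more. That was met by 10 of the 170 pairs of a member and a culture with such a mean. They were H19 in serum female and in both Epi cultures, Asb4 in Epi male and motor neuron female, and Grb10 in both motor neuron cultures. The others were Airn in motor neuron male, and Nap1l5 and Dcn in motor neuron female cells. Such pairs were not counted over all genes, so their number is not a result about imprinted genes.

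H19 rested on few cells. In serum female it was detected in 26 of 68 cells (38.2%, exact 95% interval 26.7 to 50.8%), with a median of 0.143 FPKM and a highest value of 871 FPKM. That cell held 74.1% of the H19 of the culture, and without it the mean fell from 17.3 to 4.53 FPKM. In Epi female the highest cell held 52.2%. In Epi male H19 was detected in 30 of 63 cells with a highest value of 202 FPKM, so there the mean did not rest on a single cell. Plagl1 in motor neuron female was another such case: 1 cell with 949 FPKM held 72.7%, and without it the mean was 9.37 FPKM in place of 33.5 FPKM.

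Phlda2 in the Epi male culture split the cells. Its mean was 247.9 FPKM, its median 7.00 FPKM and its highest value 2011 FPKM, and it was detected in 36 of 63 cells. In 2i male cells it was detected in 51 of 51 cells, from 13.3 to 603 FPKM. In motor neuron male it was found in 5 of 35 cells.

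Against 200 genes of the nearest mean in the same culture, Phlda2, Dcn, H19, Meg3 and Mest had a coefficient of variation above that of 89.25 to 90.75% of these genes (median over cultures; 5 cultures for Dcn and 8 for the others). Ube3a was the most even member, with a larger coefficient than only 6% of its neighbours, and among the members ranked in all 8 cultures Zrsr1 came next with 22%. Ube3a ranged from 5.20 to 17.1 FPKM over the 8 cultures and was detected in 88.6 to 98.3% of the cells.

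The 3 non-coding RNAs of the Dlk1-Dio3 cluster went together over cells. Across the cells of a group, the Spearman correlation of Meg3 and Rian had a median of 0.61 over 11 groups (0.08 to 0.79), that of Meg3 and Mirg 0.54 and that of Rian and Mirg 0.48. Over all 204 pairs of members within a cluster and a group the median was 0.16. The cells share depth and library differences, so these are descriptions. None of the 3 was at 1 FPKM or more in 8 of 41 of the 7-passage Epi cells (19.5%), in 4 of 68 and 3 of 52 serum cells, 2 of 79 and 5 of 63 Epi cells and 0 of the 2i, motor neuron and E5.5 cells. The 8 cells of the 7-passage culture without them had a median of 10298 detected genes, against 10065 in the other 33. Both of the blastocyst groups had a larger share of such cells, 8 of 23 at E3.5 (34.8%) and 12 of 23 at E4.5 (52.2%). There the cells without them had fewer detected genes than the others. The medians were 7854.5 against 8519 at E3.5 and 8493.5 against 8941 at E4.5. H19 and Igf2 had a median correlation of 0.65 over 5 groups, while Mest and its neighbour Copg2 (0.04) and H13 and Mcts2 (0.00) did not go together.

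**Figure D4:**
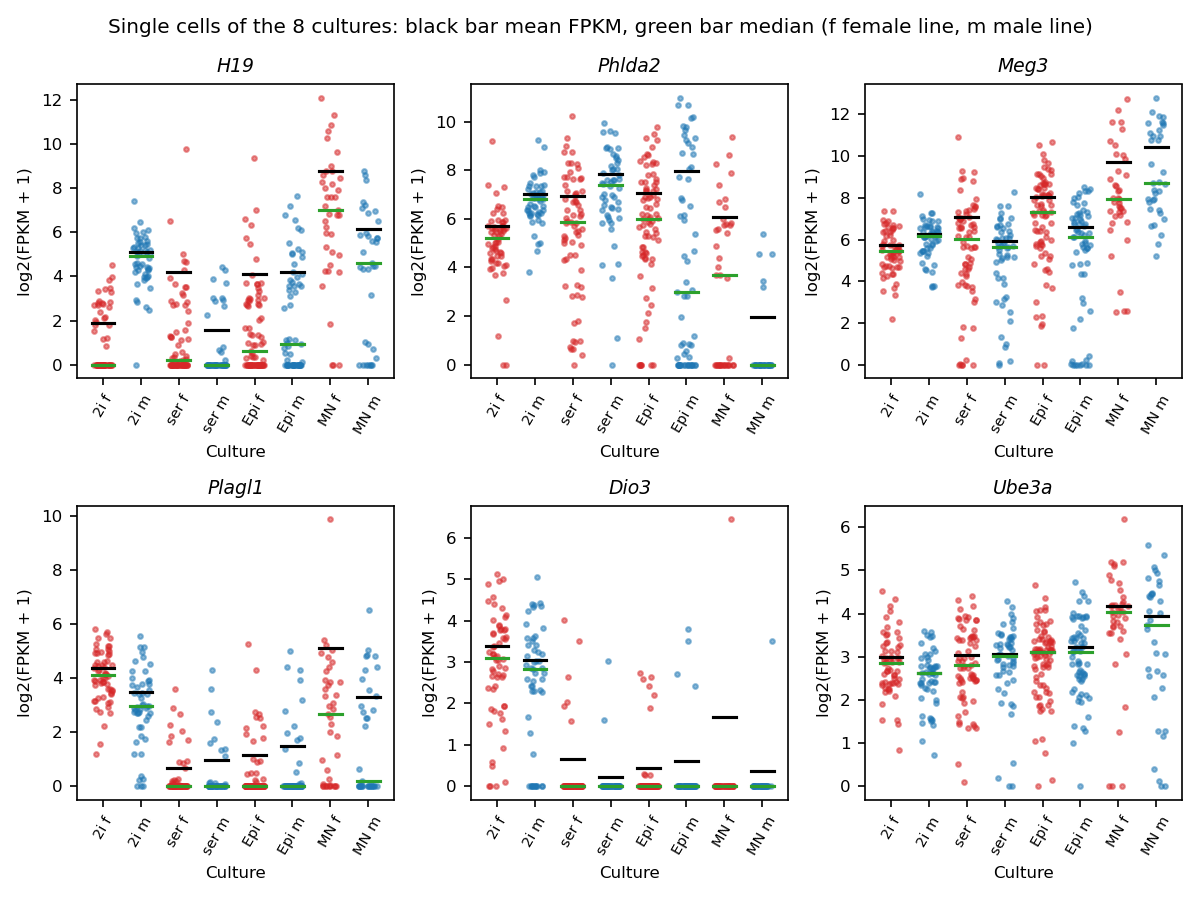
Single cells of the 8 cultures of the first table (f female, m male line; ser, serum; MN, motor neuron) for 6 imprinted genes, as log2(FPKM + 1), with the mean FPKM (black bar) and median (green bar) of each culture. Plagl1 and Dio3 are detected in most 2i cells and in few serum cells, and the H19 mean of serum female lies far above its median of 0.143 FPKM.

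The blastocyst cells had 25 of the 48 members (52.1%) at a mean of 1 FPKM or more at both stages. Snrpn led at E3.5 with 56.6 ± 26.2 FPKM (SD over cells, n = 23) in 23 of 23 cells and had 38.7 ± 30.02 FPKM at E4.5 (n = 23). H13 had 29.6 and 29.99 FPKM at E3.5 and E4.5, Slc38a4 27.2 and 25.4 FPKM, and Gnas 16.3 and 10.8 FPKM. Each stage is 1 sample here, so the stages carry no test. Listed at 0 in all 23 cells at E3.5 were H19, Phlda2, Ndn, Nap1l5, Dio3 and further members such as Magel2 and Dcn. An absence from 23 cells allows an exact 95% upper limit of 14.8% for the share of cells with 1 FPKM or more. Mest was detected in 7 of 23 cells at E3.5 and 5 of 23 at E4.5, at means of 0.960 and 2.22 FPKM.

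A single E3.5 cell had a FPKM sum of 7.90e+06, against 4.83e+05 to 1.14e+06 in the other 22. It set the means of 4 members. Copg2, a coat protein gene, had 275.9 FPKM in it, and its mean was 15.3 FPKM with and 3.5 FPKM without this cell. Ppp1r9a, a neurabin gene, had 13.2 and 3.16 FPKM, Igf2r 16.5 and 6.78 FPKM, and Peg12 1.83 and 0.220 FPKM. The number of members at 1 FPKM or more was 25 with and 25 without it.

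H19 appeared at E4.5, with a mean of 40.7 ± 83.5 FPKM, a median of 2.36 FPKM and a highest value of 356 FPKM. It was at 10 FPKM or more in 7 of 23 cells. All 7 had Cdx2 at 1 FPKM or more, with a median of 75.03 FPKM, against 35.7 FPKM in the other 16. Their median Snrpn was 15.2 FPKM. Across the 23 cells the summed trophoblast list had a Spearman correlation of -0.74 with Snrpn and 0.76 with Osbpl5, and at E3.5 of -0.73 with Snrpn. The part of trophoblast-like cells in the E4.5 values was not tested.

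At E5.5 the pattern was broader. Snrpn had 298 ± 134.4 FPKM in the female (n = 20) and 373 ± 89.6 FPKM in the male cells (n = 63), Meg3 220.3 and 174.7 FPKM, Gnas 176.2 and 223 FPKM, Mest 168.1 and 150 FPKM, and Grb10 59.3 and 57.7 FPKM. All 5 were at 1 FPKM or more in every E5.5 cell of both sexes. These cells were of another cross and another table than the blastocyst cells, so stage, cross and table cannot be told apart. For scale, the same genes at E4.5 had 38.7, 6.25, 10.8, 2.22 and 3.18 FPKM. Nap1l5 and Plagl1 stayed low at E5.5, at 1.16 and 0.394 FPKM and at 0.646 and 0.60 FPKM.

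H19 varied widely among the E5.5 cells. It had 394 ± 276.8 FPKM in female and 87.6 ± 88.5 FPKM in male cells, and it was at 100 FPKM or more in 17 of 20 and 20 of 63 cells. Those cells also had more of the visceral endoderm gene Apoa1: a median of 1365 against 242.3 FPKM in the female and 953 against 142.2 FPKM in the male cells. Igf2 had medians of 64.9 against 5.23 FPKM and 22.1 against 5.14 FPKM in the same cells, and Phlda2 of 212 against 80.2 FPKM and 160 against 37.5 FPKM. The decidual gene Prl8a2 had means of 43.8 and 2.95 FPKM in female and male cells. The sexes differed in these marker genes, and what they contribute to the levels of H19, Igf2 and Phlda2 was not tested. Dio3 was detected in 10 of 20 female and 0 of 63 male cells at E5.5.

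**Figure D5:**
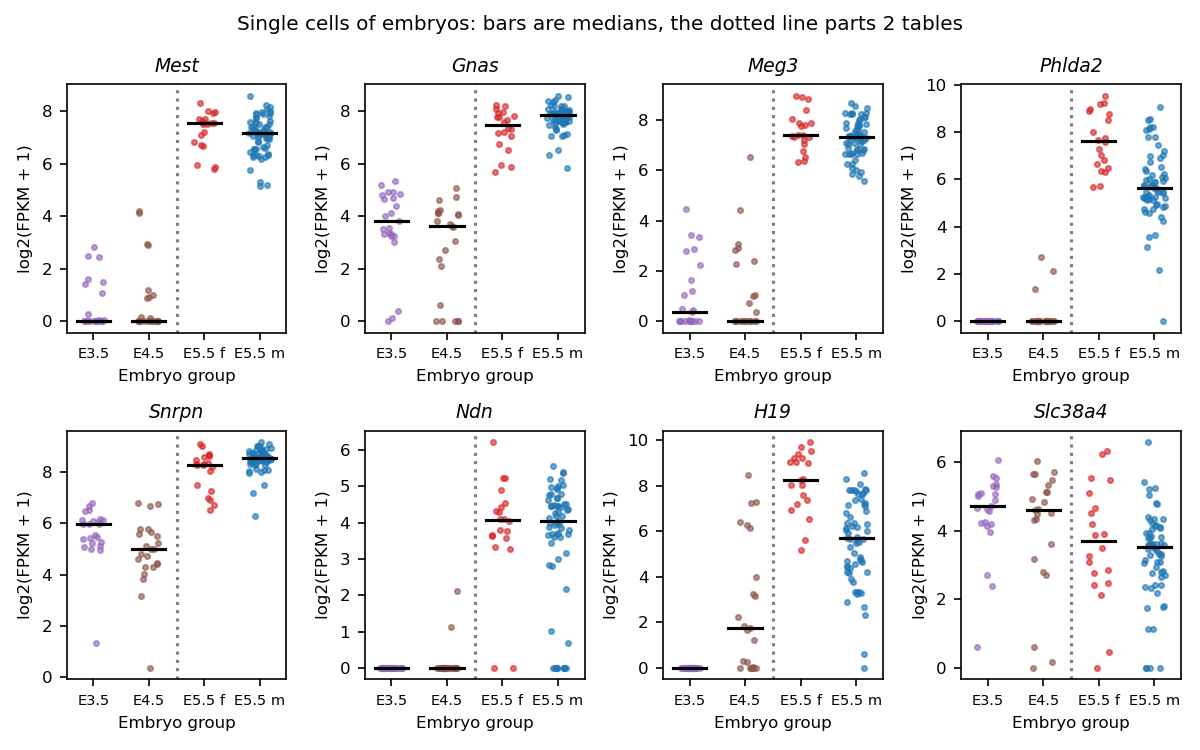
Single embryo cells for 8 imprinted genes, as log2(FPKM + 1), at E3.5, E4.5 and E5.5 (f female, m male); bars are medians and the dotted line parts the separately deposited tables. Phlda2 and Ndn are listed at 0 in all E3.5 cells, and Snrpn is present in all 23 of them.

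Some members followed marker lists within a culture. Snrpn had a Spearman correlation of 0.84 with the summed pluripotency list over the 41 cells of the 7-passage Epi culture and of 0.59 over the 63 Epi male cells. In Epi female Meg3 had -0.60 and Rian -0.67 with the naive list over 79 cells. Nnat had 0.79 and 0.92 with the neuron list over the motor neuron female and male cells. H19 had 0.61 and 0.80 with the endoderm list over the E5.5 female and male cells. These correlations carry shared depth and are given without a test.

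Regulators of imprints were called only in the motor neuron comparisons. Of 20 genes that set or keep DNA methylation and chromatin at imprints, 0 were called in serum against 2i and in Epi against serum. In motor neuron against serum cultures 3 of the 20 fell, against 2.7% of all genes tested. The falls were 3.23 for the de novo methyltransferase gene Dnmt3b, 2.17 for the remodeller gene Hells and 1.02 for Uhrf1, which guides maintenance methylation. The dioxygenase gene Tet3 rose by 2.28 and Arid4b by 1.32, so 2 of the 20 rose (10%), against 30.1% of all genes tested. Zfp57 had a change of -0.56 ± 0.45 (limma, adjusted p = 0.357). Against Epi, Dnmt3b fell by 3.42 and Uhrf1 by 1.60. That is 2 of the 20 lower and 0 higher, against 2.6% and 21.9% of all genes tested. The median change of the 20 against serum was -0.67, beside 2.07 for the imprinted genes. A second list of 36 other imprinted genes gave 34 matches, of which 19 passed the filter. In motor neuron cultures 7 of the 19 (36.84%) were called higher against serum and 0 lower, near the 30.1% of all genes called higher. Smoc1 rose by 2.39, Ctsd and Pon2 by 2.35 and Cd81 by 2.26. Against Epi 5 of the 19 (26.3%) rose, near the 21.9% of all genes. By the parental copy that textbooks give as active, 7 of 13 maternally and 12 of 21 paternally expressed members were called higher against serum. The background was 30.1% of all genes tested. Osbpl5 among the maternal and Airn, Magel2 and Nap1l5 among the paternal members passed the filter only through the motor neuron cultures. The counts without them were not worked out.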

How the data were processed

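The authors deposited 4 tables of FPKM, 1 value for each gene in each cell. The submitters' processing notes name STAR 2.4.1, Cufflinks, Cuffnorm 2.2.1 and the mm10 build; which step each served is not given in the sources used here. GENCODE vM21 (GRCm38) gave coordinates for 42462 of the 43628 gene IDs. In 356 values the exponent had a low line for a minus sign, read as values of at most 9.7552e-05 FPKM. No column was left over, and the closest pair of cells in a group had a Pearson r of 0.938 on log2(FPKM + 1).

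The first table holds the 8 cultures and was tested with limma 3.58.1 (R 4.3.3, trend = TRUE, 4 residual degrees of freedom) on log2(mean FPKM + 1), a scale that understates changes of low genes. Other tables were scaled separately and were not tested. The labels give the same lines in every state; the deviations of the female from the male culture had correlations of 0.0605 to 0.163 between states over 15504 genes. Read depth was unknown, so intervals cover the counting of cells only. Alternatives were the pseudocount, filter, scaling, averaging, cells, runs of title numbers, cultures left out, and the line as a block. The split of motor neuron cells at a neuron score of 7 and the fits without sets of cells or without both Epi cultures were added after the data were seen. The members and lists were chosen with earlier results of these data known. All 48 members are accounted for, and values are given for those that reached 10 FPKM or were called. The test script was checked on simulated data with 200 changed genes among 15504. A set log2 change of 1.5 was recovered in 0% of these genes in each comparison. A change of 3 was recovered in 55 to 67.5%, so a missing call does not show equal levels.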

Additional observations from a re-analysis of the deposited data

Results flagged for a closer look

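The female and the male line had changes of opposite sign in 4 to 16 of the 43 tested members, depending on the comparison of states, on the log2(mean FPKM + 1) scale. In 5 members both changes were at least 1 in size, and these are given here. The difference itself was not tested because each line is 1 culture per state. H19 in serum against 2i changed by 2.31 (female) and -3.53 (male), a difference of 5.84. Without the serum female cell that held 74.1% of its H19 the female change was 0.58 and the difference 4.12. Igf2, its neighbour, changed by 1.09 and -1.77 in the same comparison, a difference of 2.86. Ascl2 changed by 1.39 and -1.82, a difference of 3.21. Slc22a18, a transporter gene of the Kcnq1 cluster, changed by 1.41 and -1.09 in motor neuron against serum, a difference of 2.50. Mest changed by 1.52 and -1.52 in motor neuron against Epi, a difference of 3.04, and its Epi cultures had 145.7 and 383.5 FPKM.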

How the results depend on the processing

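Directions were compared only for members that were called or had an unadjusted p under 0.05 (limma) in a comparison. None of these changed its direction under an alternative. Members with weaker changes were not checked for this. In serum against 2i, testing the mean of log2 values and fitting only the 4 cultures each gave 2 lower members, in place of 0. In motor neuron against serum, rescaling each cell to a sum of 1000000 FPKM gave 15 higher members and the upper-quartile scaling 15, in place of 24; leaving out 1 culture at a time gave 10 to 24 higher and 0 to 2 lower, with 11 higher without serum female and 10 without serum male. The lower count was 2 with the mean of log2 values, 1 with the first run of title numbers and 2 without the cells of neither set. In motor neuron against Epi, no filter gave 10 higher members, the mean of log2 values 8 (and 1 lower), rescaled sums 7, the upper quartile 9 and the 4 cultures alone 0, in place of 18; leaving out 1 culture gave 10 to 16 higher and 0 to 2 lower, with 10 without 2i female, 10 without 2i male, 11 without Epi male, and 12 without serum female, serum male or motor neuron male. In Epi against serum the same gave 0 to 1 higher and 0 to 2 lower. The share of all genes called moved too. With the upper-quartile scaling 13.3% rose against serum, in place of 30.1%, and 9.69% against Epi, in place of 21.9%. For most of the other settings that share was not worked out. The counts therefore do not show whether members moved more than other genes. The cause was not tested. The line as a replicate block gave 23 higher members in motor neuron against serum and 18 against Epi, and it changed no other count. Uneven pairs of a member and a culture were 4 at a detection limit of 0.1 FPKM and 18 at 5 FPKM, in place of 10; at 5 FPKM, 7 members were detected in at least 50% of the cells at E3.5 (14 at 1 FPKM) and 7 at E4.5 (18 at 1 FPKM). Without counts, low values near 1 FPKM are imprecise.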
